A study of Mus musculus with 12 samples.

Results

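Late progression after loss of Sox2 was read from 6 arrays of a 12-array series: 2 arrays of cells at 24 h and 1 at 48 h after tetracycline (Tc) formed the middle window, and 2 arrays at 72 h with 1 at 96 h formed the late window. The arrays were chosen by their labelled times, and every probe that is not a control entered the comparison where its Cy3 signal cleared background well on 2 or more of the 6 arrays. That left 41445 of 42006 probes. The cells were 2TS22C, an inducible Sox2 knockout line of mouse embryonic stem (ES) cells in which Tc shuts off the remaining Sox2. They were grown in GMEM with the cytokine LIF at every time, and the 0 h cells had no Tc. Titles name Tc for each time after 0 h, a second label field names the untreated form throughout, and the titles were followed. A single line was used, and whether arrays of 1 time stem from separate cultures is not stated, so the p-values refer to the spread of these arrays, which may be technical.

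Sox2 is a transcription factor that works with Oct4 (Pou5f1) on shared enhancers to keep ES cells pluripotent, and LIF supports the same state from outside the cell through Stat3. ES cells that lose Sox2 are known to leave pluripotency and to take on features of trophectoderm, the outer layer of the early embryo. Transcripts of the stem cell state are abundant in untreated ES cells. Each array measured RNA against a constant partner: the sample was labelled with the dye Cy3, and a reference pool of RNA from several mouse cell lines with Cy5. A ratio is given below as log2 of sample over reference, so 1 unit is 2-fold, and a late change is the mean ratio of the late window minus that of the middle window.

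The median net Cy3 signal was 121.9 to 220.7 units over the 6 arrays, and the Cy3 signal was well above background for 96.2% to 98.7% of the probes. Pearson correlations of ratios across probes, which are not independent replicates, were 0.9935 between both 24 h arrays, 0.9892 between both 72 h arrays and 0.8833 to 0.8855 between the 24 h arrays and the 96 h array. All 6 arrays were image-analysed on 1 day, per the file headers, while the 0 to 12 h arrays were analysed on another. The files repeat the probe name in place of a gene name. The level of Sox2 itself, lists of pluripotency and trophectoderm genes and markers of other cell types could therefore not be read, and the values below belong to probes. In bulk RNA, fewer cells of a type and less RNA per cell cannot be told apart.

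Each probe is a 60-base oligonucleotide. The 4 below carried the largest late changes, 2 in each direction, among called probes with no overlap between late and middle arrays; they are shown so that the strongest movers can be identified. Read 5′ to 3′, none has a part marked in capitals.
Z00015331-1, rose: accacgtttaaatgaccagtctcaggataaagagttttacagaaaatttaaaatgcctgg
Z00000270-1, rose: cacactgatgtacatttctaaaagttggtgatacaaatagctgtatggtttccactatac
Z00004988-1, fell: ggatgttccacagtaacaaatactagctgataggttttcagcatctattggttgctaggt
Z00010943-1, fell: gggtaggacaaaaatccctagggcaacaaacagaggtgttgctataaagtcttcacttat

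Probes were also sorted by sequence alone, by linking those that share a run of 20 bases on 1 strand, which gave 47 groups of 4 or more probes. The largest group had 38 probes and held the commonest 14-base word of the array, CATACTGGAGAGAA, which occurs in 17 probes, 13 of them in this group, and as its complement in 0. The word overlaps the codon pattern of the conserved linker between neighbouring C2H2 zinc fingers (threonine, glycine, glutamate, lysine, proline), which was searched on both strands of all probes with any base at the last position of each codon. In all, 31 probes hold it (0.0738%), 16 of them in the group, and 1 holds its complement. C2H2 zinc-finger proteins are a large family of DNA-binding proteins in mammals, many from clusters of duplicated genes. Members are shown to make the shared word visible, in capitals. They are the brightest at 0 h that hold it, were measured on all 6 arrays and share no run of 25 bases with each other.
First group, brightest: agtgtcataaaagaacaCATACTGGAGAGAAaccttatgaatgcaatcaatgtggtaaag
First group, next: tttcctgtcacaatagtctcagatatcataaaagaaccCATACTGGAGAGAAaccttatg
First group, dimmest of those shown: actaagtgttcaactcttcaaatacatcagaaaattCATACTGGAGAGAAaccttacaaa
The second group had 18 probes, of which 12 share the 16-base word ACCTGCAGAAAGGGTC, in capitals below; 0 hold its complement. These are the 2 members chosen by the same rule, and the group was not tied to a protein family.
Second group, brightest: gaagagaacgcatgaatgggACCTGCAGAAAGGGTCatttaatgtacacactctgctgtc
Second group, next: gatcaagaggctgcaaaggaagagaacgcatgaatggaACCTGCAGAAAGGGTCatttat
A sequence match is a description of letters and does not name the transcript that a probe reads.

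Between the windows, 4738 of 41445 probes were called by limma at a Benjamini-Hochberg adjusted p under 0.05 (11.4%). Of these, 2698 were higher late (6.51%) and 2040 were lower (4.92%). The balance moved with the scaling: Cy3 alone gave 1200 higher and 1255 lower, the values of the deposited table gave 847 and 832, and median centring gave 2624 and 1317. Most changes were modest: the median was 0.48 among the risers and -0.39 among the fallers, against 0.00 for all probes tested. At least 2-fold, 274 rose (0.661%) and 90 fell (0.217%). The largest called changes were 2.30 upward and -1.88 downward. The 3 late arrays all lay above the 3 middle arrays for 16.8% of the 41152 probes measured on all 6, and all below for 15.3%.

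The number called rested on single arrays. In this fit the spread inside a window includes the movement from 24 h to 48 h and from 72 h to 96 h. Without either 24 h array, which leaves 1 array of each time in the middle window, limma called 0 probes, with 8117 at an unadjusted p under 0.05 in each case, against 11252 with all 6 arrays. Without the first or second 72 h array 740 or 1335 were called, without the 96 h array 2042, and without the 48 h array 8865. When each time was given its own mean, in a fit of 4 time groups over the same arrays, 11592 were called. With Cy3 alone 278 probes rose and 182 fell at least 2-fold.

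The step between the replicated times was tested by itself. At 72 h against 24 h, 2 arrays against 2 in the fit of 4 time groups, 10241 of 41436 probes were called (24.7%), of which 5504 were higher (13.3%) and 4737 lower (11.4%). At least 2-fold, 363 rose (0.876%) and 222 fell (0.536%). The median SD between replicate arrays was 0.036 at 24 h and 0.040 at 72 h. Leaving out any 1 array gave 6690 to 10652 calls; the lowest came without the second 24 h array. Both comparisons use the same arrays and are not independent.

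Of all called probes with a value at every time, 75.9% of the risers and 66.2% of the fallers stood in the order of the times. The median step from 72 h to 96 h was 0.15 for all risers and -0.07 for all fallers. Among the 274 probes that rose at least 2-fold, the median ratio was 0.35 and 0.29 on the 24 h arrays, then 0.87 at 48 h, 1.59 and 1.49 at 72 h, and finally 1.98 at 96 h. The steps had medians of 0.62 from 24 h to 48 h, 0.67 from 48 h to 72 h and 0.43 from 72 h to 96 h. Of the 272 risers with a value at every time, 244 (89.7%) stood in the order of the times. The 96 h array lay above both 72 h arrays for 236 of the 274, and beyond both in the direction of the late change for 2081 of all 2698 risers, 1251 of all 2040 fallers and 20913 of all 41445 tested probes.

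The 90 probes that fell at least 2-fold started high. Their median ratio was 2.48 and 2.52 at 24 h, then 1.72 at 48 h, 1.04 and 1.11 at 72 h, and finally 0.87 at 96 h. The steps had medians of -0.76, -0.63 and -0.17. The median share of the way from 24 h to the late mean that was covered at 48 h was 51.8%, against 42.8% for the strong risers. It was also 51.8% over all tested probes, and 34.1% over all fallers against 33.2% over all risers. These medians describe the classes, and the differences between them were not tested. Of 88 fallers with all values, 85 stood in falling order (96.6%). An order of this kind is partly set by choosing probes on their late change: among probes that were not called, 9.79% stood in rising and 9.72% in falling order.

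**Figure D1:**
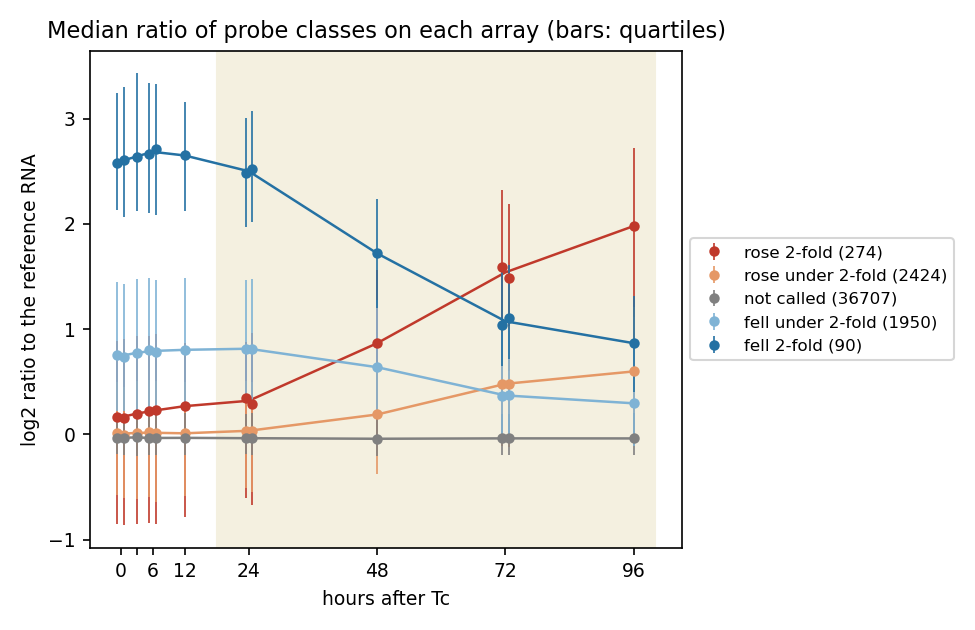
Median log2 ratio of sample over reference RNA on each of the 12 arrays (points; bars are quartiles over probes; lines join the means of the times) against hours after Tc, for probes grouped by their late change; shading marks the 6 arrays compared. The 274 risers climb from 0.35 and 0.29 at 24 h to 1.98 at 96 h, the 90 fallers descend from 2.48 and 2.52 to 0.87, and the uncalled probes stay near 0.

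Arrays that took no part in the choice showed where these probes stood before Tc. At 0 h, on arrays analysed on another day, the median ratio was 2.55 for the 90 strong fallers, 0.17 for the 274 strong risers and -0.02 for all tested probes. A ratio above 1 at 0 h, meaning more than 2-fold above the reference pool, was held by 87 of the 90 strong fallers (96.7%) and 62 of the 274 strong risers (22.6%), against 9.14% of all tested probes. A ratio below -1 was held by 66 of the strong risers (24.1%) and 0 of the strong fallers, against 4.56% of all tested. Of the strong fallers, 13 belong to the second sequence group and are linked by shared sequence, so the probes counted here are not independent.

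Read the other way, the share of probes that fell was highest in the classes with the highest ratios at 0 h. Of the 250 probes with a ratio over 3, 39.2% fell and 4.80% rose; of 679 between 2 and 3, 31.7% fell and 7.36% rose; of 2860 between 1 and 2, 18.9% fell and 8.43% rose. Near the reference, 5.45% fell between 0 and 1 and 1.33% between -1 and 0. Below it the shares that fell were 3.70% between -2 and -1 and lower again beyond that: of the 568 with a ratio under -2, 1.41% fell and 31.9% rose. Brightness moved with these classes: the median log2 Cy3 signal at 0 h was 11.0 for ratios over 3 and 7.58 for ratios under -2, against 7.42 over all tested probes. Within probes brighter than that median, 38.8% of the 309 with a ratio under -2 rose. All 250 probes with a ratio over 3 were brighter than it, so this cut cannot separate brightness from ratio in that class. The part that brightness had in its falls was not tested. The median late change was 0.24 in the lowest class and -0.46 in the highest; over the alternatives run on the ratio or on Cy3 it stayed above 0 in the lowest (0.07 to 0.37) and below 0 in the highest (-0.63 to -0.36). In Cy5 alone, the median change was -0.03 in the lowest and -0.14 in the highest. The part that the reference channel had in these figures was not tested.

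**Figure D2:**
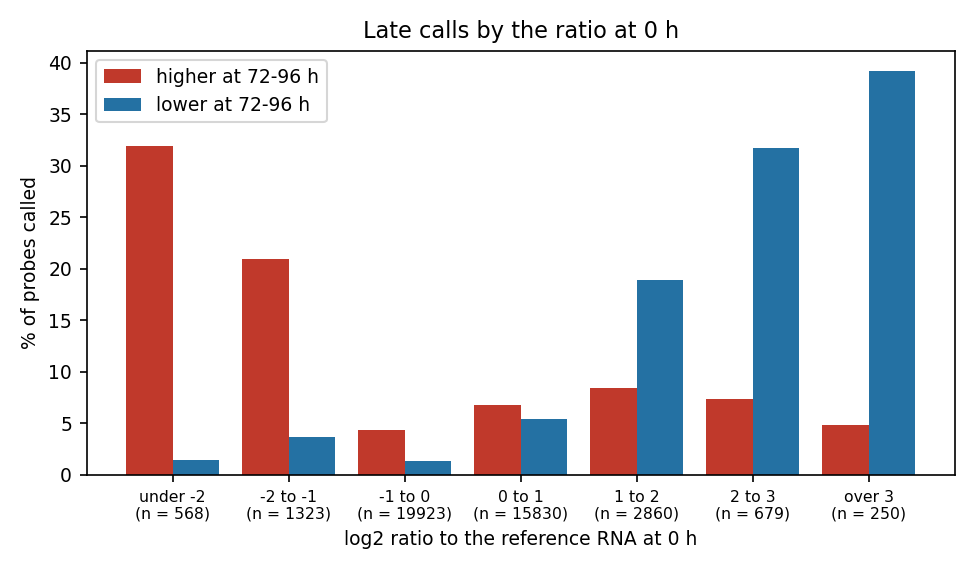
Percentage of probes called higher (red) or lower (blue) in the late window, in 7 classes of the log2 ratio to the reference RNA at 0 h, with the number of probes under each class. The blue bars reach 39.2% in the highest class and the red bars 31.9% in the lowest.

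**Figure D3:**
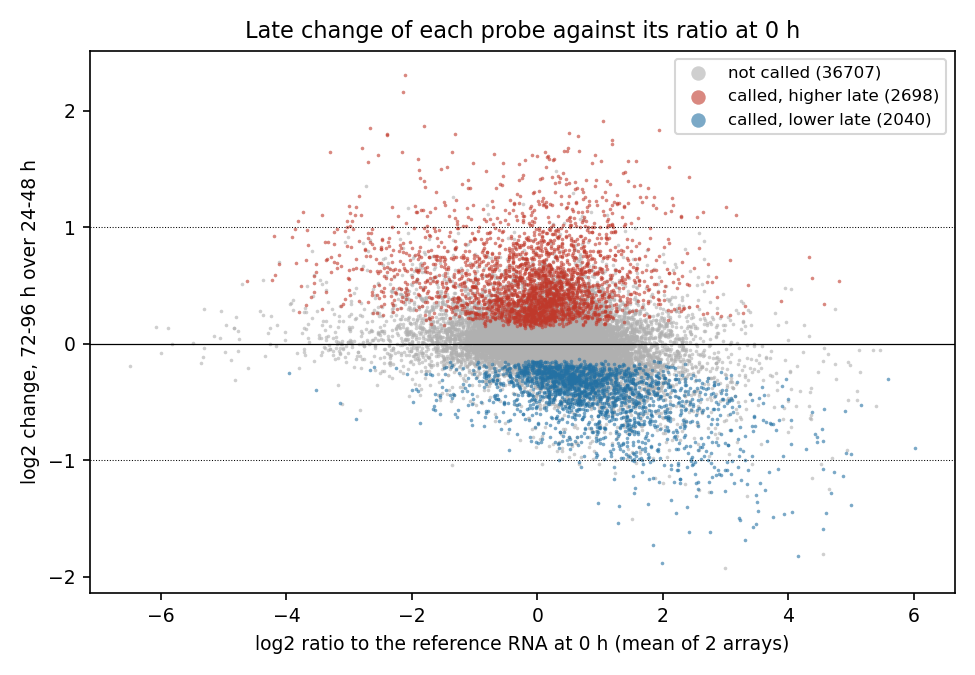
Late log2 change of each of the tested probes (vertical) against its log2 ratio at 0 h, the mean of 2 arrays (horizontal); red and blue points were called higher and lower, grey points were not called, and dotted lines mark 2-fold. Called falls beyond 2-fold sit at ratios above 0, while called rises of that size spread over both sides.

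The onset of the response gave little of this. In the 6 arrays of the first 12 h, the step from 0 and 3 h to 6 and 12 h had a median of 0.02 for the 274 strong risers and 0.03 for the 90 strong fallers. That step was tested in a fit of all 12 arrays in 4 windows of 3. It called 6 of 41749 probes (0.0144%), with 4471 at an unadjusted p under 0.05. The spread in that fit includes the movement inside the later windows, and its late step called 9202 of 41751 probes. The late step differed from the onset step, tested directly in a fit of the 12 arrays in 4 windows of 3, for 5782 of 41745 probes (13.9%). The late step was the more positive for 3112 of them (7.45%) and the more negative for 2670 (6.40%); with Cy3 alone 3489 differed, 42.2% of them upward in place of 53.8%. Without the 48 h array 9488 differed. Without either 24 h array 3440 or 3454 did, and without either 0 h array 3539 or 3678. Each step lies inside 1 image analysis day, but the difference sets one day against the other.

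The probe Z00015331-1 rose the most. Its ratio was -1.39 and -1.51 on the 24 h arrays, then 0.10 at 48 h, 1.21 and 1.08 at 72 h, and finally 1.81 at 96 h. It thus went from below the reference at 24 h to above it at 72 h, and the windows did not overlap. The window means were -0.93 ± 0.89 and 1.37 ± 0.39 (SD, n = 3 each), a change of 2.30 ± 0.44 (SE) with an adjusted p of 0.0258 from limma, and 2.60 ± 0.06 for 72 h against 24 h (adjusted p = 5.6e-06). The net Cy3 signal was 300.0 and 249 units on the 24 h arrays, then 878 at 48 h, 2680 and 2600 at 72 h, and finally 5490 at 96 h, while net Cy5 stayed between 2010 and 2700. At 0 h the ratio was -2.08 and -2.15, and at 12 h it was -2.05.

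The probe Z00000270-1 rose from a level that was already above the reference. Its ratio was 1.73 and 1.69 at 24 h, then 3.08 at 48 h, 4.35 and 3.90 at 72 h, and finally 3.99 at 96 h. The 96 h array lay between both 72 h arrays. The change between windows was 1.92 ± 0.37 (adjusted p = 0.0268). Net Cy3 was 385 and 282 units on the 24 h arrays and 5070 on the 96 h array. Net Cy5 was 248 and 203 at 24 h and 554 at 96 h, and the change of normalized Cy5 alone was 0.63 (adjusted p = 0.297); with Cy3 alone the rise was 2.57.

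The probe Z00004988-1 had a two-sided course. It stood at 1.91 and 2.06 at 0 h and 3.03 at 12 h, then at 3.48 and 3.78 at 24 h. From there it went down to 2.98 at 48 h, 1.74 and 1.71 at 72 h, and finally 1.14 at 96 h, below every array of the first 12 h. The late change was -1.88 ± 0.24 (adjusted p = 0.0125), and the late step differed from the onset step by -2.55 ± 0.30 (adjusted p = 0.00105). Net Cy3 was 702 and 638 units on the 24 h arrays and 80.9 on the last array. Net Cy5 also went from 101 and 73.0 to 34.2, and the change of normalized Cy5 alone was -0.50 (adjusted p = 0.306); with Cy3 alone the fall was -2.10.

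The probe Z00010943-1 was among the 250 probes with a ratio over 3 at 0 h, at 4.13 and 4.17. Its ratio was 3.10 and 3.09 at 24 h, then 1.67 at 48 h, 0.94 and 0.91 at 72 h, and finally 0.56 at 96 h. The late change was -1.82 ± 0.38 (adjusted p = 0.0320). Net Cy3 was 455 and 394 units at 24 h, 137 at 48 h and 83.9 to 92.5 on the 3 late arrays, and was still flagged as well above background on all 12 arrays. Without background correction its change was -0.88 (adjusted p = 0.106), and with Cy3 alone -1.55 (adjusted p = 0.0527).

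For these 4 probes, leaving out either 24 h array ended the window call, with adjusted p-values of 0.0622 to 0.127. Leaving out either 72 h array or the 96 h array ended it for 3 of them, Z00004988-1 excepted (0.0599 to 0.0922), and the deposited table ended it for all 4 (0.0568 to 0.0709). The 72 h against 24 h test gave adjusted p-values of 5.6e-06 to 2.54e-05. It used arrays on which these probes were chosen, so it is not separate evidence for them. The direction held under every alternative that was run on them. That was partly set by the choice of probes: with windows that do not overlap, leaving out an array cannot reverse it. Several other alternatives changed only the filter or the test and left the estimate as it was.

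**Figure D4:**
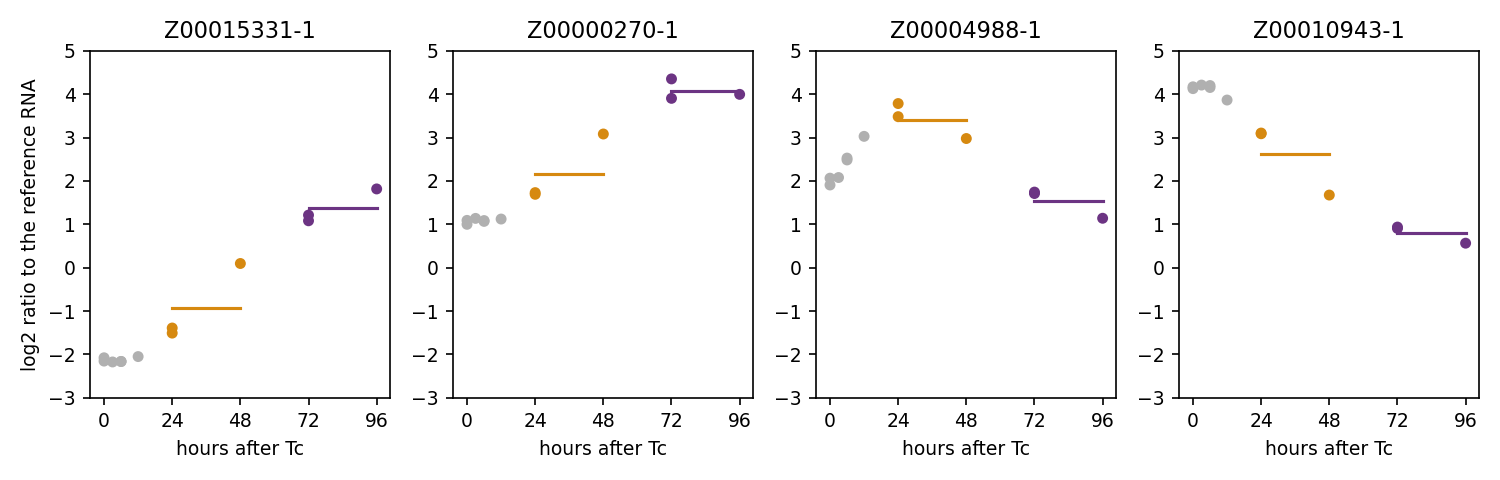
Log2 ratio of sample over reference RNA on each of the 12 arrays against hours after Tc for the 4 probes with the largest late changes; grey points are 0 to 12 h, orange points the middle window, purple points the late window, and lines the window means. In each panel the 3 purple points lie clear of the 3 orange points.

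The first sequence group, in which 16 of 38 probes hold the zinc-finger linker pattern, fell together. Its median ratio was 2.49 and 2.47 on the 24 h arrays, then 2.36 at 48 h, 1.99 and 2.07 at 72 h, and finally 1.95 at 96 h. At 0 to 12 h the array medians had ranged from 2.46 to 2.57, and the largest step down lay between 48 h and 72 h. Of 38 probes, 34 fell and 0 rose, where 4.92% of all tested probes fell. The median late change was -0.43, with a range of -0.74 to -0.16, against 0.00 for all probes. At 72 h against 24 h 36 fell (11.4% of all tested) and 0 rose (13.3% of all tested). The 4 members without a window call had changes of -0.42, -0.25, -0.27 and -0.16.

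Members of the group overlap in sequence and can read the same transcripts, so they are not independent. Their late falls were called in 0 without either 24 h array, 11 or 21 without the first or second 72 h array and 23 without the 96 h array, while the median change stayed between -0.50 and -0.39 when any 1 array was left out. The median log2 Cy3 signal at 0 h was 13.1, with a range of 6.51 to 15.9 (median of all tested probes 7.42), and the median change of Cy5 alone was -0.11, against -0.02 over all probes. A 0 h ratio above 1 was held by 37 of the 38, against 41.9% of all 2040 fallers and 9.14% of all tested probes. Of the 24 members with a 0 h ratio between 2 and 3, 23 fell, against 215 of all 679 probes in that class (31.7%), which include these 24. The brightest member shown above had ratios of 2.52 and 2.47 at 24 h, then 2.35 at 48 h, 2.06 and 2.07 at 72 h, and finally 2.06 at 96 h, a change of -0.38 ± 0.05 (adjusted p = 0.0139). The next fell by 0.59 (adjusted p = 0.0280) and the dimmest of those shown by 0.58 (adjusted p = 0.0114).

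The linker pattern was followed outside the group as well. Of the 15 further probes that hold it, 7 fell (4.92% of all tested) and 2 rose (6.51% of all tested), with a median change of -0.19 and a range of -0.81 to 0.73. Their median ratio at 0 h was 1.05, lower than the 2.52 of the group. Of the 22 group members without the pattern in their 60 bases, 20 fell. The difference between these sets was not tested. In RefSeq start windows (GRCm38.p6, 250 bases before to 50 after each start), members shared a run of 20 bases with 9 predicted genes, 6 on chromosome 12 and 3 on chromosome 13, among them Gm29758 and Gm38704 on chromosome 12 and Gm19792 on chromosome 13.

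The second sequence group also fell. Its median ratio was 3.11 on both 0 h arrays, 2.69 at 12 h, 2.30 and 2.36 at 24 h, then 1.54 at 48 h, 1.02 and 1.09 at 72 h, and finally 0.93 at 96 h. Of 18 probes 15 fell (4.92% of all tested), 13 of them at least 2-fold (0.217% of all tested), and 0 rose. The median late change was -1.10 (range -1.44 to -0.03). Members are linked by shared sequence and are not independent. Their median ratio at 0 h was 3.09. Of the 250 probes with a 0 h ratio over 3, which include members of this group, 39.2% fell, and 32 fell at least 2-fold. At 72 h against 24 h 17 fell (11.4% of all tested), with a median of -1.33. The brightest member had ratios of 2.96 and 2.94 at 24 h, then 2.05 at 48 h, 1.39 and 1.13 at 72 h, and finally 1.13 at 96 h, a change of -1.44 ± 0.24 (adjusted p = 0.0205). The next changed by -1.08 ± 0.20 (adjusted p = 0.0239).

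This group was dimmer, with a median log2 Cy3 signal of 8.82 at 0 h, and its window calls were fragile. They numbered 0 without background correction (median change -0.48), 1 with the deposited table (median -1.36), 9 with the scanner program's processed signals, 0 without either 24 h array or the first 72 h array, and 1 without the second 72 h array or the 96 h array. With 4 time groups 17 of 18 fell, where 5266 of 41301 tested probes were called lower.

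**Figure D5:**
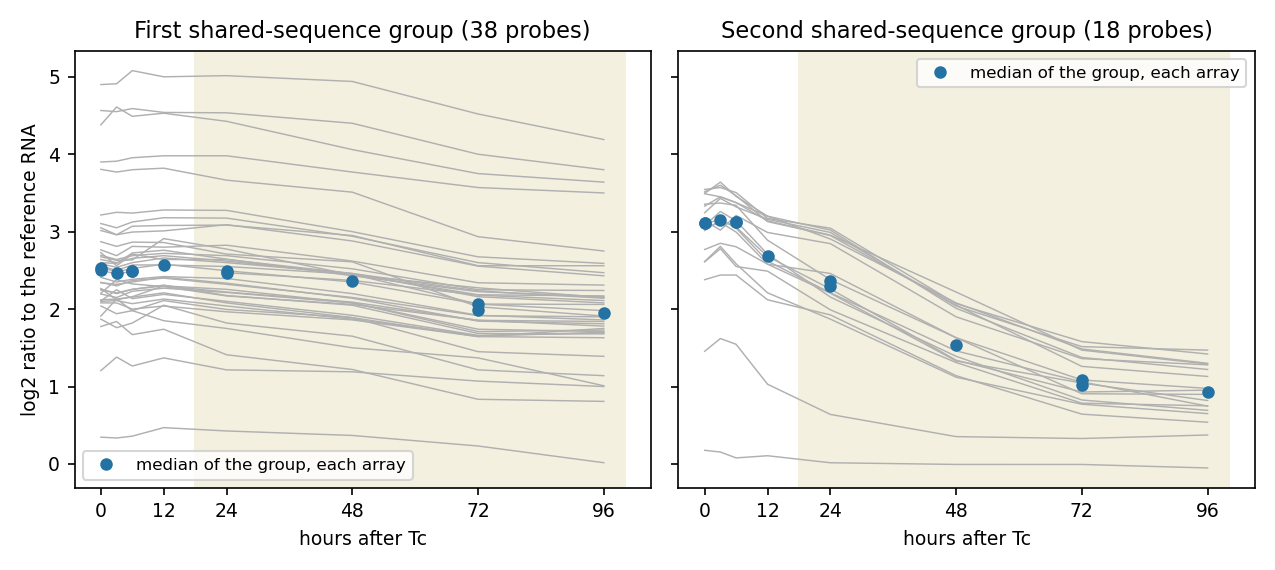
Log2 ratio of sample over reference RNA against hours after Tc for the members of the 2 largest sequence groups (grey lines, mean of the arrays of each time) with the group median on each array (blue points); shading marks the 6 arrays compared. The first group stays near 2.5 up to 24 h and ends at 1.95, while the second goes from 3.11 at 0 h to 0.93 at 96 h.

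Over the 47 sequence groups, 292 of 296 probes were tested, of which 63 fell and 13 rose. Without the 2 largest groups, 14 of 236 fell (5.93%) and 13 rose (5.51%) in the window fit, close to the 4.92% and 6.51% of all tested probes. No group held both directions: 8 groups had at least 1 fall, 4 had at least 1 rise, and 35 had no call in the windows. Outside the first 2, the groups with most members called were a pair of 4-probe groups that fell in all 4 members, with medians of -0.64 and -0.86, a 4-probe group with 3 falls (median -0.23), a 6-probe group with 5 rises (median 0.32), a 5-probe group with 4 rises (median 0.41) and a 4-probe group with 3 rises (median 0.45). The next largest groups, of 12 and 10 probes, had 0 calls in the windows, with medians of 0.03 and 0.05. At 72 h against 24 h, 11.4% of all tested probes fell and 13.3% rose. There, some groups without a window call fell in all tested members: 5 of 5, 4 of 4 and 4 of 4, with medians of -0.43, -0.49 and -0.52. Others fell in part, among them 5 of 6 and 4 of 5 members. Rises reached at most 2 of 4 members in a group without a window call.

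Probes that tile the same sequence gave a check on the measurement itself. Of 967 tested pairs that share a run of 25 bases on the same strand, both were called in 143, and the direction was the same in 143 of them; in 68 further pairs 1 of the probes was called. The median absolute difference of their late changes was 0.05, and the changes correlated at r = 0.958 across pairs, which share targets and the 6 arrays. These pairs came from 1459 probes, so a probe could enter several, and members of the sequence groups above are among them. Of all tested probes, 11.4% were called. In 106 pairs that overlap on opposite strands, both were called in 4, with the same direction in 4, and 1 of the probes in 21. There the median absolute difference was 0.19 and r was 0.552.

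Some probes could be placed by sequence. Of all probes, 289 match a RefSeq start window along their whole length, 287 were tested, and 6 rose and 7 fell (4.53%, against 11.4% of all probes). Such a match gives the position of the bases in GRCm38.p6 and not the transcript that is read. In 4 of the 13, the probe runs in the direction of the gene, and each lies wholly before the annotated start. The probe before Ltb, which encodes the cytokine subunit lymphotoxin beta, lies at chr17:35194278-35194337 and rose by 0.76 ± 0.16 (adjusted p = 0.0305), from -0.27 and -0.32 at 24 h and 0.27 at 48 h to 0.57 and 0.64 at 72 h, and finally 0.75 at 96 h. The probe before Tulp4, at chr17:6137920-6137979 and inside an annotated span of that gene, rose by 0.25 ± 0.04 (adjusted p = 0.0223). The probe before Fthl17d, a ferritin heavy-chain-like gene, lies at chrX:8986680-8986739 and changed by -0.54 ± 0.12 (adjusted p = 0.0382), from 1.42 and 1.68 at 24 h and 1.22 at 48 h to 0.80 and 1.03 at 72 h, and finally 0.87 at 96 h. The probe before Ebf1, a B-cell transcription factor gene, lies at chr11:44617856-44617915 and changed by -0.20 ± 0.04 (adjusted p = 0.0334).

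The other 9 run against the gene in whose start window they lie: 3 span the start and 6 lie wholly before it. The largest rise among them was 1.02 ± 0.17 (adjusted p = 0.0202) at the start of Gm41094, at chr14:8055589-8055648, which also lies within the span of Abhd6, a lipid hydrolase gene. Its ratio was 1.03 and 0.99 at 24 h, then 1.29 at 48 h, 1.91 and 1.95 at 72 h, and finally 2.52 at 96 h. The largest fall was -1.03 ± 0.20 (adjusted p = 0.0266) before LOC108168979, at chr4:129354034-129354093 within the span of Zbtb8a, a zinc-finger gene. Its ratio was 2.00 and 2.02 at 24 h, then 1.32 at 48 h, 0.75 and 0.93 at 72 h, and finally 0.57 at 96 h. A probe before and against Fut8, the core fucosyltransferase gene, at chr12:77409904-77409963, changed by -0.84 ± 0.13 (adjusted p = 0.0178), from 2.53 and 2.55 at 24 h to 1.47 at 96 h.

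The reference channel was tested as a background, since the same RNA was on every array. In Cy5 alone, 0 of 41445 probes were called between the windows by limma, with 4797 (11.6%) at an unadjusted p under 0.05. Cy3 alone, scaled in the same way, gave 2455 calls, with 10765 at an unadjusted p under 0.05. A count of 0 does not show that the reference was unchanged. The median Cy5 change was -0.18 for the 90 strong fallers and 0.05 for the 274 strong risers, against -0.02 for all tested probes, so a small movement of the reference in the same direction went with the largest changes. Its part in them was not tested. Probes also differed in base composition: the median GC content was 41.7% for both strong classes and 45.0% for probes that were not called.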

How the data were processed

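Sample RNA (Cy3) and a reference pool (Cy5) were hybridised on 12 two-colour arrays with no dye swap, per the labels. The deposited scanner files hold intensity values per spot and flags coded 0 or 1, written by version 7.5.1 of Agilent Feature Extraction according to their headers; processed intensity signals were background-subtracted and dye-normalized by that program, per the file headers. Values of the deposited series table are log10, and their changes followed sample over reference; how they were centred stays unknown, and each column's median was 2.98.

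Mean signals were background-corrected (normexp, offset 50, which shrinks changes of dim probes), loess-normalized within arrays with control spots at weight 0 and averaged by probe after removal of outlier spots, in limma 3.58.1 under R 4.3.3. A probe needed Cy3 well above background on 2 arrays of a fit. Windows were compared with lmFit and eBayes over 3 against 3 arrays and called at an adjusted p under 0.05; an exact permutation test of 3 against 3 cannot go below 0.1. In the window fit a missing (flagged) spot was left out for that array. Probes were named by rule: the 2 largest called changes per direction with no overlap of the windows. Replicate numbers pair nothing in the labels (r = 0.161 between deviations of same-numbered arrays). The comparison, lists and alternatives were chosen with earlier results of these data known; sequence groups, start-window matches (RefSeq, GRCm38.p6) and 0 h classes were added after seeing the data. Fits were tested on simulated data. Depth is set by the number of arrays. Gene lists and the Sox2 readout were not run, since no table used here pairs these probes with genes. Figures were drawn with matplotlib 3.10.9.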

Additional observations from a re-analysis of the deposited data

Results flagged for a closer look

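The late step, from 24 and 48 h to 72 and 96 h, differed from the onset step, from 0 and 3 h to 6 and 12 h, for 5782 probes in a direct test of the difference with limma over 12 arrays. The 2 steps were read on different image analysis days, so day and step cannot be told apart in this difference. The 4 named probes were among them. These 4 were chosen for their late change on the same arrays, so a difference was largely set by that choice where the onset step was near 0. The difference was 2.29 ± 0.47 (SE) for Z00015331-1 (adjusted p = 0.0104), whose onset step was 0.01, and 1.90 ± 0.40 for Z00000270-1 (adjusted p = 0.0114), whose onset step was 0.02. It was -2.55 ± 0.30 for Z00004988-1, whose onset step was 0.66 upward, and -1.72 ± 0.42 for Z00010943-1 (adjusted p = 0.0206), whose onset step was -0.10.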

How the results depend on the processing

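The window count of 4738 became 2095 without background correction, 3133 with the processed signals, 1679 with the deposited table, 2455 with Cy3 alone, 166 at an adjusted p under 0.01, 364 at 2-fold, 9570 with array weights, 12832 with 8 time groups over 12 arrays and 11592 with 4 over 6; Cy5 alone gave 0. Leaving out 1 array gave 0 to 8865 calls. The 72 h against 24 h count of 10241 became 6142 with the deposited table, 3899 with Cy3 alone and 585 at 2-fold, and 6690 to 10652 with 1 array left out. The count of 5782 for the difference of steps became 3489 with Cy3 alone, 1827 at an adjusted p under 0.01, 460 at 2-fold and 10277 with array weights, and 3440 to 9488 with 1 array left out. The cause was not tested. With the replicate number as a block, 4283 probes were called between the windows and 10969 at 72 h against 24 h; with 2 pairs and a correlation of 0.161 the numbers were not taken to pair the arrays. The 4 named probes kept their direction in each of 19 alternatives and lost the call in 8, 7, 4 and 9 of them. Their direction could not reverse when an array was left out, since they were chosen for windows that do not overlap. A block for slide or image analysis day could not be fitted, since each array has its own slide and the 6 arrays share 1 day. Alternatives on the choice of probes per gene were not run for lack of gene names. Dim probes, such as those of the second sequence group, are limited by signal over background.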
